A study of Mus musculus with 9 samples.

Results

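The genes described here are 36 genes of glycolysis and of the response to low oxygen, read in monocytes of an NMO-like mouse model. They were chosen by name, with earlier results of these data known. Of the 36, 21 act in glucose uptake, glycolysis or the fate of pyruvate, and 15 are HIF regulators or genes that HIF is known to induce. All 36 were found among the 23238 gene symbols of the count files, and 31 of them were among the 10107 genes that held enough counts to be tested. Neuromyelitis optica (NMO) is an autoimmune disease in which antibodies against the astrocyte water channel aquaporin-4 damage the central nervous system. In the model, female wild-type C57BL/6N mice, 12 weeks of age, received purified NMO-IgG with human complement into the striatum of one hemisphere. CD45+CD11b+P2ry12-Ly6C+Ly6G- cells, the gate used for monocytes, were sorted on day 1 from blood and brain and sequenced with QuantSeq, which makes 1 tag near the 3ʹ end of each transcript.

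The 9 libraries form 3 groups of 3, and each library came from a pool of 5 mice. Nor_Bl_mono are blood monocytes of non-treated mice, NMO_Bl_mono are blood monocytes of the model, and NMO_Br_mono are monocytes sorted from the brain of the model. The paper describes the brain monocytes as infiltrated. All mice were WT. Neither a Control-IgG group nor monocytes of the normal brain are among these libraries, so the injection itself is not separated from NMO-IgG. Brain cells were dissociated with Liberase and passed through Percoll, whereas blood cells came from a density gradient. Tissue and isolation therefore cannot be told apart in any comparison of brain with blood.

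Glycolysis splits glucose into pyruvate in the cytosol and yields ATP without oxygen. Hexokinase traps the sugar, phosphofructokinase commits it, and the later enzymes recover ATP before lactate dehydrogenase turns pyruvate into lactate. Under low oxygen the prolyl hydroxylases stop marking HIF-1α for degradation, and HIF then induces most of these enzymes together with genes of mitophagy, angiogenesis and lipid storage. Activated monocytes and macrophages are known to lean on glycolysis also when oxygen is present.

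HIF binds a short core, ACGTG, and the stretches before 5 of the genes are printed because each holds that core, because these genes were higher in every brain library than in every blood library, and because the listed start is also the outermost annotated start of the gene. Slc16a3, Hif1a and P4ha1 meet the first 2 conditions and have a gene start further upstream, so they are not printed. Aldoa, Pkm and Ldha also meet the first 2 conditions, but they have more than a single listed start and are not printed either. Each printed stretch is 60 bases of the strand of the gene, upstream of its only RefSeq start (GRCm38.p6, the mm10 build). ACGTG or its reverse complement CACGT is in capitals. The Slc2a1 stretch is chr4:119108681-119108740 (+), that of Hk2 is chr6:82774645-82774704 (-), that of Pgk1 is chrX:106186932-106186991 (+), that of Bnip3 is chr7:138909582-138909641 (-) and that of Ero1l is chr14:45318604-45318663 (-).
Slc2a1: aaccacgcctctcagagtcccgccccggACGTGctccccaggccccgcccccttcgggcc
Hk2: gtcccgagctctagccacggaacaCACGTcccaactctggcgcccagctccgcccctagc
Pgk1: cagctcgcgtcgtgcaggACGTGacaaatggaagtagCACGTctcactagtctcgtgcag
Bnip3: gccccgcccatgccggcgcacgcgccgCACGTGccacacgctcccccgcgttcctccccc
Ero1l: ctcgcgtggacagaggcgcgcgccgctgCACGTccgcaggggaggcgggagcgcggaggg

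Both strands of the 250 bases before each start were searched for ACGTG. A start was listed for 33 of the 36 genes, with none for Slc2a3, Bnip3l and Ndrg1, and 22 of those 33 (66.7%) held the core, beside 4998 of 27025 genes in the whole table (18.5%) and 2087 of the 8100 tested genes with a start (25.8%). Many of the genes were listed because they are known HIF targets, so the share describes the list. The core was present before 11 of the 14 genes that were higher in every brain library than in every blood library (78.6%) and before 11 of the other 19 (57.9%). Those 19 include Aldoc, Eno1, Adm, Egln3 and Ak4, which held too few counts to be tested, so the shares are not like for like. Whether the core goes with the brain levels was not tested. Gpi1, Tpi1 and Gapdh were the members of the first set with no match in this window. Hk2 holds a further match outside the printed stretch, and the CACGTG of Bnip3 reads as the core on both strands and is also the E-box to which Myc and other factors bind.

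Total counts per library ranged from 7584649 to 10419647, and 28.4% to 43.61% of them fell on the ribosomal gene Rn45s. The replicates were uneven: between 4567 and 11556 genes held a count, the lowest number being that of NMO_Bl_mono replicate 3. In that library 23 of the 36 genes were at 0, against 4 to 13 in the other blood libraries and 1 to 8 in the brain libraries. Levels are given as CPM, counts scaled to a common library size with TMM factors, in the order replicate 1, 2 and 3, and a count of 3, taken as the floor, corresponds to 0.273 to 0.432 CPM. They are not divided by transcript length, since QuantSeq makes 1 tag per transcript. Levels are compared between libraries, and between genes only as shares of the counts of 2 related genes. All 8 monocyte markers were found in each group, with summed levels of 3510 to 7000 CPM over the 9 libraries, but they did not move together. Ptprc (CD45) and Ly6c2, both part of the sort gate, were lower in every brain library than in every blood library, Ly6c2 at 437, 59.4 and 199 CPM against 462 to 933 CPM in blood, whereas Ccr2, Itgam and Cd14 were higher in every brain library. The libraries are bulk samples, in which fewer cells of a type and less RNA per cell cannot be told apart.

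The comparison of NMO_Br_mono with NMO_Bl_mono asks how monocytes sorted from the brain differ from those in the blood of the same model. Most of the glycolytic enzymes and several hypoxia response genes were higher in the brain libraries, and the mitophagy receptor Bnip3l was lower. In 19 of the 31 tested genes every brain library was above every NMO_Bl_mono library, beside 6.3% of all genes tested, and in 1 every brain library was below, beside 6.05%. The fitted difference was positive for 25 and negative for 6, beside 51.4% of all genes positive. The median log2 fold change was 1.47 against 0.05 over all genes. The genes were chosen with earlier results of these data known, so these shares and medians, here and below, describe the list. No member passed an adjusted p under 0.05 in edgeR's quasi-likelihood test (0.247% of all genes did), and the smallest adjusted p was 0.802. At an unadjusted p under 0.05, 2 members were higher (Aldoa and Pkm; 1.48% of all genes) and 1 was lower (Bnip3l; 3.84%). DESeq2 gave 5 higher at the unadjusted threshold, beside 2.98% of the genes to which it gave a p, and none past the adjusted one (3.48%). limma-voom gave 8 higher, beside 3.75% of all genes, of which Pkm passed the adjusted threshold (adjusted p = 0.0231; 0.505% of all genes did).

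Without the sparse replicate 3 of NMO_Bl_mono, the brain libraries were above both others in 19 of the 31 genes, beside 7.39% of all genes, and below both in 3 (Slc2a3, Hk1 and Bnip3l), beside 20.3%. The refit without that library tested 34 members, with a median log2 fold change of 1.16. In 14 of the 31 genes the brain libraries were above all 6 blood libraries, beside 3.57% of all genes: Slc2a1, Hk2, Gpi1, Aldoa, Tpi1, Gapdh, Pgk1, Pkm, Ldha, Slc16a3, Hif1a, Bnip3, Ero1l and P4ha1. Bnip3l alone was below all 6, beside 3.13%. The summed level of the 36 genes was 4111, 4600 and 4163 CPM in NMO_Br_mono, 2039, 2260 and 1420 CPM in NMO_Bl_mono and 2175, 1776 and 1694 CPM in Nor_Bl_mono, with no overlap between brain and blood.

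**Figure D1:**
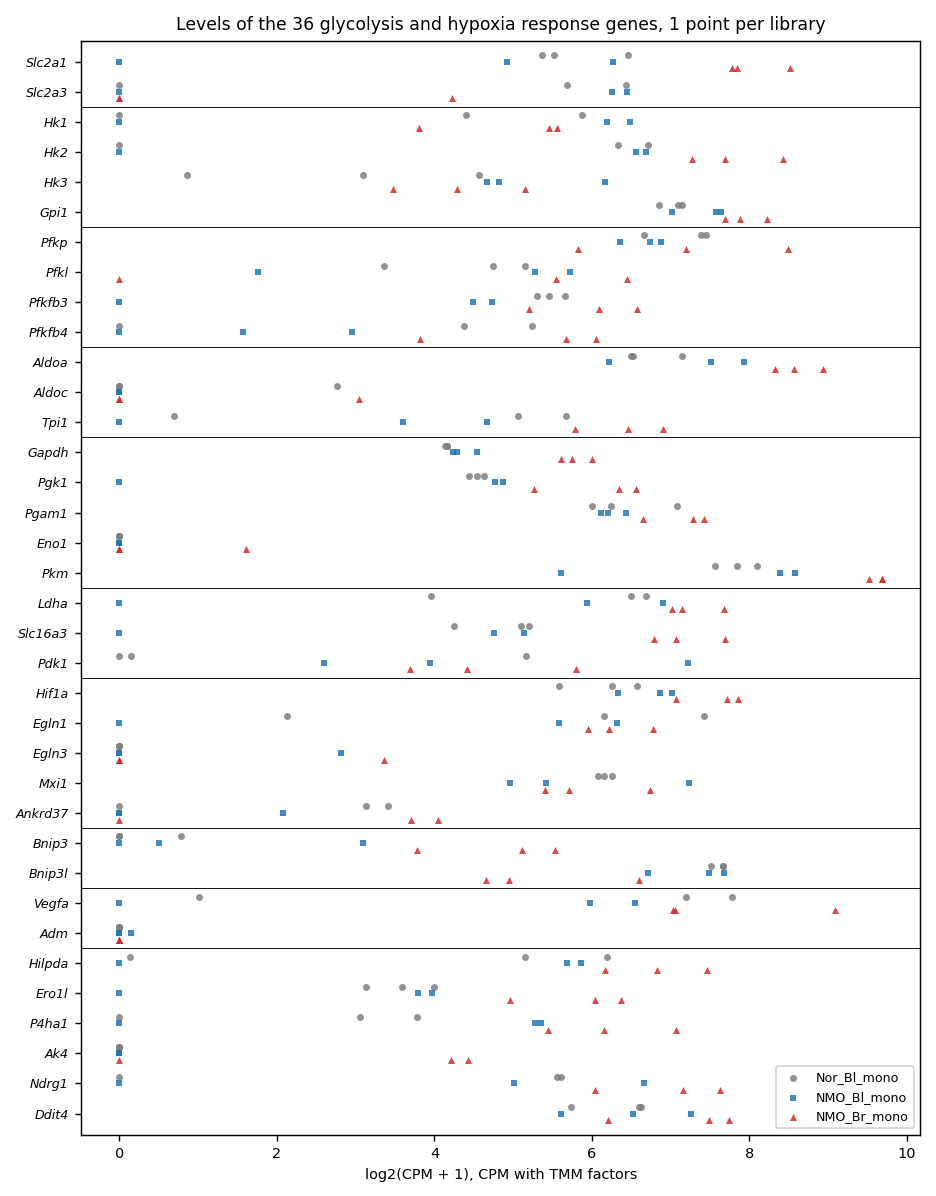
Level of each of the 36 genes in each of the 9 libraries, as log2(CPM + 1), with lines between roles (glucose uptake at the top, other hypoxia targets at the bottom). The brain libraries (red triangles) lie to the right of all blood libraries for 14 genes and to the left for Bnip3l, and many blue squares at 0 belong to the sparse NMO_Bl_mono replicate 3.

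Glucose enters through the transporters Slc2a1 (GLUT1) and Slc2a3 (GLUT3), and the libraries held them in different proportions. Slc2a1 was at 218, 228 and 364 CPM in NMO_Br_mono, at 29.3, 76.1 and 0 CPM in NMO_Bl_mono and at 44.7, 40.4 and 87.2 CPM in Nor_Bl_mono. All brain libraries lay above all blood libraries. Its log2 fold change over NMO_Bl_mono was 2.94 ± 1.38 (SE; unadjusted p = 0.0506, adjusted p = 0.802), and 2.37 without NMO_Bl_mono replicate 3 (unadjusted p = 0.00304). Slc2a3 was at 17.6, 0 and 0 CPM in NMO_Br_mono, at 86.3, 75.3 and 0 CPM in NMO_Bl_mono and at 85.6, 50.4 and 0 CPM in Nor_Bl_mono. Only the 2 blood libraries numbered 3 overlapped with the brain here.

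Slc2a1 made up 92.5% of the counts of both transporters in NMO_Br_mono replicate 1 (exact 95% binomial interval 91.3 to 93.6) and 100% in replicates 2 and 3. In NMO_Bl_mono it made up 25.3% (22.4 to 28.4) and 50.3% (47.6 to 52.9), and replicate 3 held neither gene. In Nor_Bl_mono the shares were 34.3%, 44.5% and 100%, the last in the library with no Slc2a3 count. These intervals cover counting error only, since PCR copies were counted as reads.

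Hexokinases add the first phosphate to glucose. Hk2, the isoform that HIF induces, was at 153, 342 and 205 CPM in NMO_Br_mono, at 93, 102 and 0 CPM in NMO_Bl_mono and at 79.7, 104 and 0 CPM in Nor_Bl_mono. The groups did not overlap, with a log2 fold change over NMO_Bl_mono of 1.84 ± 1.78 (adjusted p = 1), and 1.27 without NMO_Bl_mono replicate 3. Hk1, the constitutive isoform, ranged from 13 to 46 CPM in the brain and from 0 to 88.5 CPM in blood. Hk2 made up 76.9%, 88.8% and 94% of the counts of both isoforms in NMO_Br_mono and 56.2% and 53.5% in the 2 NMO_Bl_mono libraries that held any, but 57.9% and 83.7% in Nor_Bl_mono, so that normal blood overlapped with the brain. Hk3, the myeloid isoform, was at 34.6, 18.6 and 10.1 CPM in NMO_Br_mono, within its range of 0.817 to 70.6 CPM in blood.

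Gpi1, which turns glucose-6-phosphate into fructose-6-phosphate, was at 206, 235 and 298 CPM in NMO_Br_mono, at 128, 189 and 198 CPM in NMO_Bl_mono and at 135, 115 and 140 CPM in Nor_Bl_mono. The lowest brain library was just above the highest NMO_Bl_mono library, and the log2 fold change was 0.52 ± 0.51 (adjusted p = 1).

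At the phosphofructokinase step the 2 enzyme subunits overlapped between brain and blood, whereas the 2 bifunctional regulators did not in the comparison with NMO_Bl_mono. Pfkp was at 146, 358 and 55.5 CPM in NMO_Br_mono and between 81.1 and 173 CPM in blood. Pfkl was at 85.8, 0 and 45.7 CPM in NMO_Br_mono and between 2.39 and 51.7 CPM in blood. Both were spread widely among the brain libraries.

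Pfkfb3 makes fructose-2,6-bisphosphate, the main activator of phosphofructokinase. Its level was 35.7, 66.9 and 94 CPM in NMO_Br_mono, 21.4, 25.6 and 0 CPM in NMO_Bl_mono and 42.9, 49.6 and 38.6 CPM in Nor_Bl_mono. The brain was above NMO_Bl_mono, with a log2 fold change of 2.06 ± 1.67 (adjusted p = 1), but overlapped with normal blood. Pfkfb4 was at 13.1, 49.9 and 65.2 CPM in NMO_Br_mono, at 1.96, 6.75 and 0 CPM in NMO_Bl_mono and at 36.7, 19.7 and 0 CPM in Nor_Bl_mono. It had the largest fitted difference of all tested members in this comparison, a log2 fold change of 3.87 ± 2.61 (adjusted p = 1), and it too overlapped with normal blood.

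Aldolase and triosephosphate isomerase split the sugar into interconvertible trioses. Aldoa was at 490, 378 and 319 CPM in NMO_Br_mono, at 181, 244 and 73.4 CPM in NMO_Bl_mono and at 89.5, 141 and 91.1 CPM in Nor_Bl_mono. Its gene is at chr7:126795234-126800994. All brain libraries were above all blood libraries. The log2 fold change over NMO_Bl_mono was 1.25 ± 0.55 (unadjusted p = 0.0384, adjusted p = 0.802), a 2.38-fold difference, and 0.91 without NMO_Bl_mono replicate 3 (unadjusted p = 0.0523).

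Aldoc, the isoform of the nervous system, held counts in 2 libraries, at 7.24 CPM in NMO_Br_mono replicate 1 and at 5.81 CPM in Nor_Bl_mono replicate 2, and was not tested. Tpi1 was at 119, 54.1 and 87 CPM in NMO_Br_mono, at 11.1, 24.5 and 0 CPM in NMO_Bl_mono and at 32.4, 50 and 0.613 CPM in Nor_Bl_mono. Its lowest brain library was close to the highest blood library, and its log2 fold change over NMO_Bl_mono was 2.87 ± 1.9 (adjusted p = 1), or 2.3 without NMO_Bl_mono replicate 3.

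The later enzymes recover ATP and NADH. Gapdh, which reduces NAD, was at 47.7, 62.8 and 52.5 CPM in NMO_Br_mono, at 17.9, 22.3 and 18.5 CPM in NMO_Bl_mono and at 16.8, 16.6 and 16.8 CPM in Nor_Bl_mono. The brain mean, 54.3 ± 7.69 CPM (SD, n = 3), stood apart from both blood means, 19.6 ± 2.39 and 16.7 ± 0.121 CPM (SD, n = 3 each). Its log2 fold change over NMO_Bl_mono was 1.47 ± 1.44 (adjusted p = 1), and it was positive under TMM, RLE and unscaled library sizes alike. The fit shares its dispersion among genes of like abundance (common dispersion 2.87), so its SE is wide beside the spread of Gapdh's own replicates. Gapdh is widely used as a reference gene, also in the quantitative PCR of striatal tissue in the study.

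Pgk1, which makes the first ATP, was at 93.5, 80.3 and 37.6 CPM in NMO_Br_mono, at 26.2, 28.2 and 0 CPM in NMO_Bl_mono and at 22.3, 20.7 and 23.8 CPM in Nor_Bl_mono. Brain and blood did not overlap, with a log2 fold change over NMO_Bl_mono of 1.96 ± 1.74 (adjusted p = 1), or 1.38 without NMO_Bl_mono replicate 3. Pgam1 was at 155, 171 and 98.9 CPM in NMO_Br_mono, at 68.1, 72.7 and 85.5 CPM in NMO_Bl_mono and at 63.2, 74.6 and 134 CPM in Nor_Bl_mono. It was above NMO_Bl_mono (log2 fold change 0.91 ± 0.7, adjusted p = 1) but overlapped with normal blood through 1 library.

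Eno1 was at 0 in 8 libraries and at 2.04 CPM in NMO_Br_mono replicate 1, and was not tested. Its near-identical copy Eno1b, which is no member, was at 155, 42.8 and 97.2 CPM in NMO_Br_mono and between 35 and 78.2 CPM in blood (log2 fold change over NMO_Bl_mono 0.77 ± 0.91, adjusted p = 1). Reads of enolase 1 cannot be divided between both entries. The same reserve holds for Gapdh, Pgk1, Pgam1, Tpi1, Aldoa, Pkm and Ldha, which have processed pseudogenes, since reads with several alignments were counted.

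Pkm (chr9:59656576-59679372), pyruvate kinase of monocytes and most other tissues, was at 823, 823 and 730 CPM in NMO_Br_mono, at 333, 383 and 47.7 CPM in NMO_Bl_mono and at 273, 188 and 229 CPM in Nor_Bl_mono. Every brain library exceeded every blood library. The log2 fold change over NMO_Bl_mono was 1.64 ± 0.59 (unadjusted p = 0.0148, adjusted p = 0.802), a 3.11-fold difference. Without NMO_Bl_mono replicate 3 it was 1.16 (unadjusted p = 0.0041), and its unadjusted p was under 0.05 in each of the 22 alternative settings. A 3ʹ tag does not separate the M1 and M2 splice forms, which share their end.

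Ldha then turns pyruvate into lactate, which leaves the cell through the exporter Slc16a3 (MCT4), and Pdk1 keeps pyruvate from the mitochondria. Ldha was at 204, 129 and 141 CPM in NMO_Br_mono, at 60.4, 119 and 0 CPM in NMO_Bl_mono and at 89.3, 14.5 and 102 CPM in Nor_Bl_mono. Its groups did not overlap, but the gap was small, and the log2 fold change over NMO_Bl_mono was 1.41 ± 1.44 (adjusted p = 1), or 0.83 without NMO_Bl_mono replicate 3.

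Slc16a3 was at 205, 110 and 133 CPM in NMO_Br_mono, at 34.2, 26.1 and 0 CPM in NMO_Bl_mono and at 33.2, 35.9 and 18 CPM in Nor_Bl_mono. The brain libraries were far above all blood libraries. Its log2 fold change over NMO_Bl_mono was 2.9 ± 1.5 (unadjusted p = 0.0746, adjusted p = 0.802), and 2.32 without NMO_Bl_mono replicate 3 (unadjusted p = 0.0113). Pdk1 was at 54.7, 20.4 and 11.9 CPM in NMO_Br_mono and from 0 to 148 CPM in blood, where the highest value was that of NMO_Bl_mono replicate 3, the library in which most members were at 0.

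**Figure D2:**
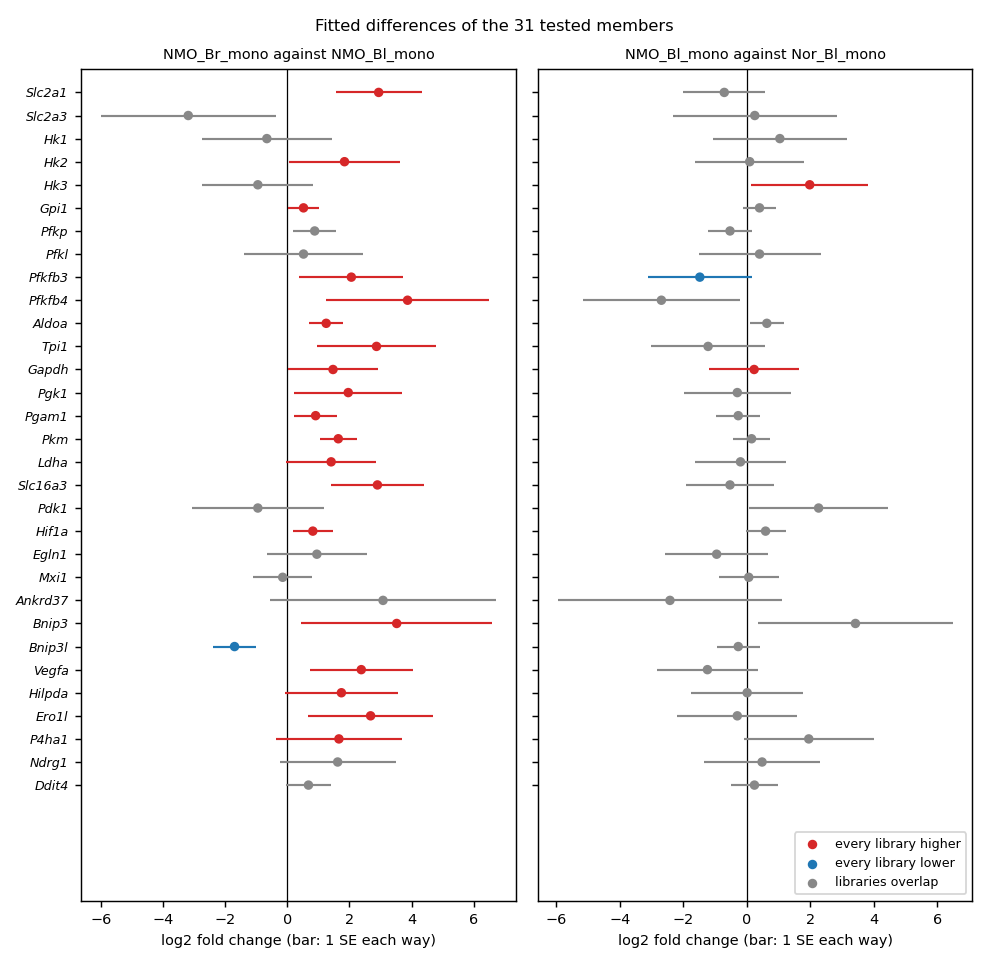
Fitted log2 fold change of the 31 tested genes with 1 SE on each side, for NMO_Br_mono against NMO_Bl_mono (left) and NMO_Bl_mono against Nor_Bl_mono (right). On the left 19 genes have no overlap between groups and lie to the right of 0, with Bnip3l to the left, whereas on the right the points scatter on both sides of 0 and 3 genes have no overlap.

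Among the HIF regulators, Hif1a itself was higher in the brain and the others overlapped. Hif1a (chr12:73901324-73947554), the oxygen-regulated subunit, was at 230, 133 and 210 CPM in NMO_Br_mono, at 129, 79.8 and 116 CPM in NMO_Bl_mono and at 46.8, 75.2 and 94.4 CPM in Nor_Bl_mono. Brain replicate 2 was only just above NMO_Bl_mono replicate 1, and the log2 fold change over NMO_Bl_mono was 0.82 ± 0.64 (adjusted p = 1). HIF-1α is mainly controlled as a protein, which these counts do not measure.

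The prolyl hydroxylase Egln1 was at 61, 73.3 and 109 CPM in NMO_Br_mono, inside its blood range of 0 to 170 CPM. Egln3, a hydroxylase that HIF induces, held counts in 2 libraries, at 9.27 CPM in NMO_Br_mono replicate 1 and at 6.02 CPM in NMO_Bl_mono replicate 1, and was not tested. Mxi1, a Myc antagonist, was at 41.4, 106 and 51.5 CPM in NMO_Br_mono and from 30 to 149 CPM in blood. Ankrd37 was at 12, 0 and 15.5 CPM in NMO_Br_mono and from 0 to 9.62 CPM in blood.

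Bnip3 and Bnip3l (NIX) are related receptors that send mitochondria to autophagy, and their levels lay on opposite sides of blood. Bnip3 was at 12.7, 45.3 and 33.5 CPM in NMO_Br_mono, at 0.42, 7.51 and 0 CPM in NMO_Bl_mono and at 0.719, 0 and 0 CPM in Nor_Bl_mono. All brain libraries were above all blood libraries. The log2 fold change over NMO_Bl_mono was 3.52 ± 3.08 (adjusted p = 1), or 2.95 without NMO_Bl_mono replicate 3 and 7.13 without replicate 2, which held 69 counts where the others held 3 and 0. Against Nor_Bl_mono it was 6.94 ± 3.61 (unadjusted p = 0.0755, adjusted p = 0.722), a value that rests on 5 counts in a single normal library and was 11.18 without it.

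Bnip3l (chr14:66985238-67008877) was at 29.9, 24.1 and 95.6 CPM in NMO_Br_mono, at 104, 178 and 203 CPM in NMO_Bl_mono and at 202, 182 and 202 CPM in Nor_Bl_mono. Brain replicate 3 came close to NMO_Bl_mono replicate 1, and the other libraries were far apart. The log2 fold change over NMO_Bl_mono was -1.7 ± 0.69 (unadjusted p = 0.0283, adjusted p = 0.802), a 3.25-fold lower level. It was -2.57 without NMO_Br_mono replicate 3 and -1.35 (unadjusted p = 0.0768) without replicate 2. Bnip3 made up 29.8% (25.2 to 34.7), 65.3% (61.7 to 68.8) and 26% (23.6 to 28.4) of the counts of both genes in NMO_Br_mono, and 0% to 4.04% in the 6 blood libraries.

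**Figure D3:**
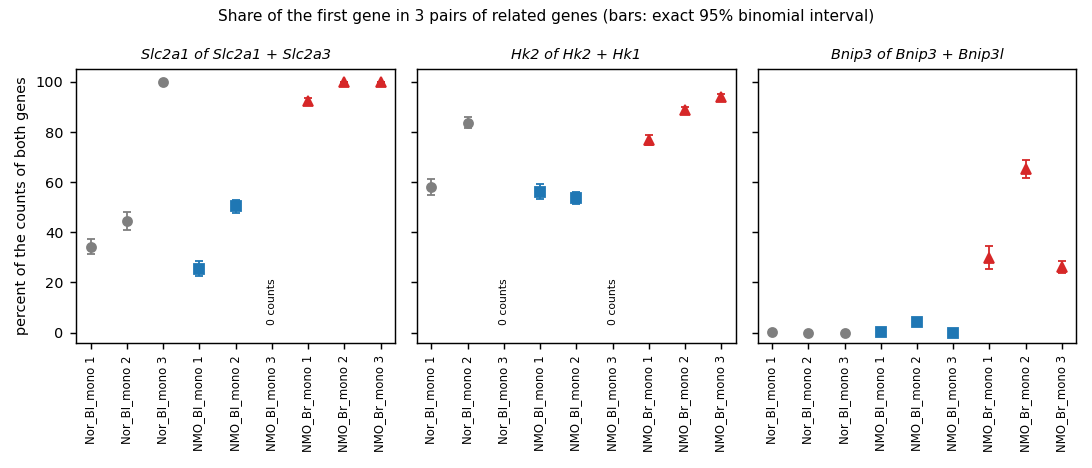
Percent of the counts of both genes that fell on Slc2a1 (left), Hk2 (middle) or Bnip3 (right) in each library, with exact 95% binomial intervals that cover counting error only. The Bnip3 share is 26% or more in the brain and at most 4.04% in blood, while the Slc2a1 and Hk2 shares of single normal blood libraries reach the brain values.

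Red cells hold much Bnip3l, since it removes their mitochondria as they mature, and the erythroid markers moved with it. Of 7 erythroid markers listed, 5 were tested, none was higher in NMO_Br_mono than in NMO_Bl_mono, and 4 were lower at an unadjusted p under 0.05. Their summed level was 402, 1.05 and 58.5 CPM in NMO_Br_mono, 5420, 1650 and 2080 CPM in NMO_Bl_mono and 4280, 898 and 1660 CPM in Nor_Bl_mono. Hba-a2, Alas2 and Slc4a1 were at 0 in the brain, but also in both blood libraries numbered 3. Slc4a1 was at 0 in all normal blood libraries. Within blood the library with the highest erythroid sum, NMO_Bl_mono replicate 1, had the lowest Bnip3l level, and Nor_Bl_mono replicates 1 and 3 had equal Bnip3l levels at erythroid sums of 4280 and 1660 CPM. Bpgm, the glycolytic side enzyme best known from red cells, was at 0 in all brain libraries and between 1.45 and 26.2 CPM in blood. The part of red cell RNA in the Bnip3l difference was not tested.

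**Figure D4:**
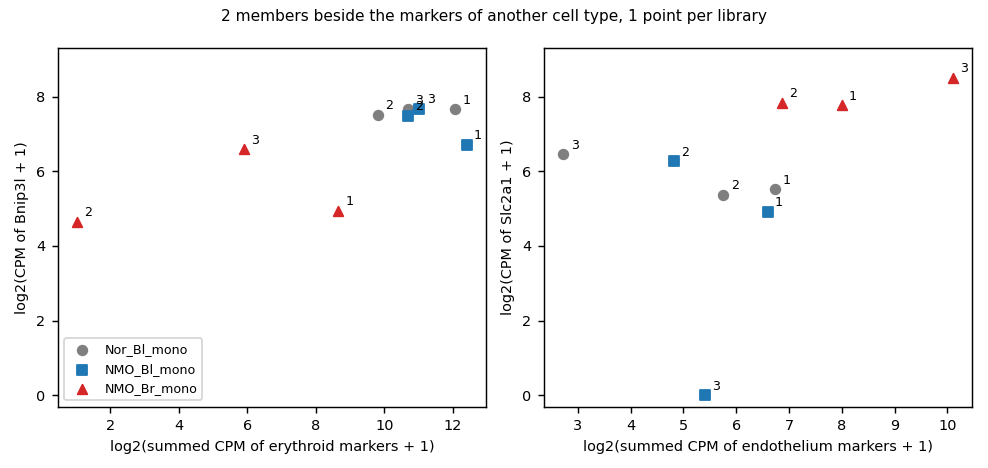
Level of Bnip3l against the summed erythroid markers (left) and of Slc2a1 against the summed endothelial markers (right), as log2(CPM + 1), 1 point per library with its replicate number. Bnip3l is lower in the brain libraries, which also have the lower erythroid sums. Slc2a1 is higher in all brain libraries, whose endothelial sums (115 to 1100 CPM) also lie above those of blood (at most 106 CPM). The lowest of these brain sums, that of replicate 2, is mostly Pecam1 (82.6 CPM), which reaches 86.1 CPM in blood.

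Vegfa and Adm are factors that hypoxic cells secrete to act on vessels. Vegfa was at 130, 542 and 132 CPM in NMO_Br_mono, at 61.8, 92.2 and 0 CPM in NMO_Bl_mono and at 218, 145 and 1.02 CPM in Nor_Bl_mono. The brain was above NMO_Bl_mono (log2 fold change 2.38 ± 1.65, adjusted p = 1), but 2 normal blood libraries were above 2 brain libraries. Adm was at 0 in 8 libraries and at 0.109 CPM in NMO_Bl_mono replicate 2, under the floor.

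Hilpda, which holds back lipolysis at lipid droplets, was at 71.1, 112 and 176 CPM in NMO_Br_mono, at 50.4, 56.9 and 0 CPM in NMO_Bl_mono and at 72.2, 34.4 and 0.102 CPM in Nor_Bl_mono. It was above NMO_Bl_mono (log2 fold change 1.74 ± 1.81, adjusted p = 1) and overlapped with normal blood by a single library. Ero1l, an oxidase of disulfide formation in the endoplasmic reticulum, was at 64.7, 30.2 and 81.7 CPM in NMO_Br_mono, at 14.7, 12.8 and 0 CPM in NMO_Bl_mono and at 7.77, 15 and 11 CPM in Nor_Bl_mono. The brain libraries were well above all blood libraries, and the log2 fold change over NMO_Bl_mono was 2.68 ± 2.01 (adjusted p = 1).

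P4ha1, a prolyl hydroxylase of collagen, was at 133, 42.4 and 69.9 CPM in NMO_Br_mono, at 37.7, 40 and 0 CPM in NMO_Bl_mono and at 7.34, 12.7 and 0 CPM in Nor_Bl_mono. Brain replicate 2 was barely above NMO_Bl_mono replicate 2. The log2 fold change was 1.66 ± 2.02 over NMO_Bl_mono (adjusted p = 1), or 1.08 without NMO_Bl_mono replicate 3, and 3.61 ± 2.19 over Nor_Bl_mono (adjusted p = 0.873).

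Ak4, a mitochondrial adenylate kinase, was at 20.5, 0 and 17.5 CPM in NMO_Br_mono and at 0 in all blood libraries, and was not tested. Ndrg1 was at 64.5, 142 and 196 CPM in NMO_Br_mono, at 99.9, 31.2 and 0 CPM in NMO_Bl_mono and at 46, 47.7 and 0 CPM in Nor_Bl_mono. It overlapped with NMO_Bl_mono but was above Nor_Bl_mono in every library (log2 fold change 2.1 ± 1.9, adjusted p = 1). Ddit4, an inhibitor of mTORC1 that also answers to glucocorticoids and other stress, was at 72.5, 179 and 213 CPM in NMO_Br_mono and from 47.8 to 152 CPM in blood.

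NMO_Bl_mono against Nor_Bl_mono asks whether the genes already differ in the blood of the model. A positive fitted difference was found for 17 tested genes and a negative one for 14, beside 42.4% of all genes positive. The median log2 fold change was 0.06, against -0.16 over all genes. Single members ranged from -2.69 to 3.42, with an SE of up to 3.54. None passed an adjusted p under 0.05 (0% of all genes did), and none was higher (0.465% of all genes) or lower (0.247%) at an unadjusted p under 0.05 in edgeR. DESeq2 called none of these members at the unadjusted threshold either, beside 1.72% of its genes higher and 0.824% lower. limma-voom gave 3 higher at that threshold, beside 3.43% of all genes, and none lower, beside 1.41%. Every NMO_Bl_mono library was above every normal library for Hk3 and Gapdh, beside 2.34% of all genes, and below for Pfkfb3, beside 4.45%. For Hk3 the levels were 27.3, 24.4 and 70.6 CPM against 22.6, 7.5 and 0.817 CPM (log2 fold change 1.98 ± 1.84, adjusted p = 1). It was 1.33 without NMO_Bl_mono replicate 3, 3.29 without Nor_Bl_mono replicate 1 and 0.78 without both libraries numbered 3. For Gapdh the difference was 0.23 ± 1.41, and for Pfkfb3 it was -1.48 ± 1.64 (adjusted p = 1 for both), or -0.89 without NMO_Bl_mono replicate 3, where Pfkfb3 was at 0.

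NMO_Br_mono against Nor_Bl_mono shares its brain libraries with the first comparison and is given beside it, not as a repeat. Of the 31 genes, 28 had a positive fitted difference, beside 46.3% of all genes. The median log2 fold change was 1.2 against -0.12 over all genes. The brain was above in every library for 15 genes (6.07% of all genes) and below for Bnip3l (9.37%). No member passed the adjusted threshold (0.247% of all genes did). At an unadjusted p under 0.05, Aldoa, Pkm and Hif1a were higher (1.75% of all genes) and Bnip3l was lower (4.07%). The log2 fold changes were 1.88 ± 0.56 for Aldoa (adjusted p = 0.441), 1.78 ± 0.59 for Pkm (adjusted p = 0.602), 1.41 ± 0.64 for Hif1a (adjusted p = 0.708) and -1.97 ± 0.7 for Bnip3l (adjusted p = 0.708). Pkm passed the adjusted threshold when NMO_Bl_mono replicate 3 was left out of the shared fit (adjusted p = 0.0135; 0.552% of all genes passed there), and Aldoa did in DESeq2 (adjusted p = 0.0247; 3.83% of its genes passed).

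The other genes that did not overlap with normal blood had adjusted p-values between 0.722 and 1. Their log2 fold changes over Nor_Bl_mono were 2.36 ± 1.47 for Slc16a3 (adjusted p = 0.912), 2.23 ± 1.34 for Slc2a1 (adjusted p = 0.858), 2.38 ± 1.98 for Ero1l, 1.93 ± 1.78 for Hk2, 1.7 ± 1.44 for Gapdh, 1.66 ± 1.72 for Pgk1, 1.65 ± 1.81 for Tpi1, 1.2 ± 1.44 for Ldha and 0.92 ± 0.51 for Gpi1 (adjusted p = 0.764). For those without a p in the sentence the adjusted p was 1.

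Neighbouring genes of these pathways were listed apart from the 36. Of 25 other glycolysis and pyruvate genes tested in NMO_Br_mono against NMO_Bl_mono, 14 had a positive fitted difference, none was higher and 1 (Bpgm) was lower at an unadjusted p under 0.05. Their median log2 fold change stood at 0.16. Over all genes tested, 51.4% had a positive fitted difference, 1.48% were higher and 3.84% lower at the unadjusted threshold, and the median was 0.05. The 18 tested genes of the tricarboxylic acid cycle had a median of 0.14, with none past the unadjusted threshold, and 1 of them, Mdh2, was above NMO_Bl_mono in every brain library. The 7 pentose phosphate genes had a median of 0.47, and 1 of them, Rpe, was lower (log2 fold change -6.24 ± 2.57, adjusted p = 0.802).

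Among 28 other hypoxia targets tested, 22 had a positive fitted difference, beside 51.4% of all genes, with a median of 1.16 against 0.05. Plin2, the coat of lipid droplets, was higher at 1.62 ± 0.69, Zfp36l1, an RNA decay factor, was higher at 1.46 ± 0.67, and Rora, a nuclear receptor, was lower at -3.84 ± 1.77 on the log2 scale (unadjusted p = 0.0345, 0.0477 and 0.0482; adjusted p = 0.802 for each). Of 12 other HIF regulators tested, 5 had a positive difference, with a median of -0.42. Epas1 (HIF-2α) was at 40.9, 57.3 and 197 CPM in NMO_Br_mono and from 0 to 10.5 CPM in blood (log2 fold change over NMO_Bl_mono 7.04 ± 2.93, adjusted p = 0.802). Cited2, which competes with HIF for its coactivator, was at 37, 59.7 and 43.6 CPM in NMO_Br_mono and from 77 to 169 CPM in blood (log2 fold change over NMO_Bl_mono -1.61 ± 0.71, adjusted p = 0.802).

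Markers of other cells differed between brain and blood beside these genes. Endothelial cells are rich in Slc2a1 and Epas1, and the summed level of 5 endothelial markers was 254, 115 and 1100 CPM in NMO_Br_mono, 95.9, 27.4 and 41.4 CPM in NMO_Bl_mono and 106, 53.1 and 5.62 CPM in Nor_Bl_mono. Every brain sum was above every blood sum, but that of replicate 2 only narrowly. In replicate 2 it was mostly Pecam1 (82.6 CPM), which reached 86.1 CPM in blood, while Flt1 and Slco1a4 were at 0. In replicate 3 it was mostly Flt1 (554 CPM) and Slco1a4 (452 CPM). Cldn5 was at 33, 0 and 60 CPM in the brain and at 0 in blood. Brain replicate 3 had the highest endothelial sum, the highest Slc2a1 and the highest Epas1. Brain replicate 2 had a lower endothelial sum than replicate 1, but slightly higher Slc2a1 (228 against 218 CPM) and Epas1 (57.3 against 40.9 CPM). Nor_Bl_mono replicate 3 had the lowest endothelial sum of all libraries and the highest Slc2a1 in blood (87.2 CPM).

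Microglia markers, 8 in the list, summed to 858, 836 and 499 CPM in NMO_Br_mono and to between 0.0909 and 384 CPM in blood, with Tmem119 at 78.4, 0 and 21 CPM in the brain and at 0 in blood. Cx3cr1, which monocytes also express, made up 544, 297 and 337 CPM of these brain sums. Neutrophil markers, 8 listed, summed to 442, 1750 and 1120 CPM in NMO_Br_mono and to between 83.1 and 296 CPM in blood. S100a8 (148, 813 and 390 CPM) and S100a9 (78.8, 660 and 433 CPM) made up much of these brain sums. Ngp was at 57.8, 245 and 102 CPM in the brain and at most 27.5 CPM in blood. Retnlg was at 0 in the brain and at up to 125 CPM in blood, and Camp and Mmp8 overlapped. Platelet markers, 7 listed, summed to at most 39.8 CPM in the brain and to at least 449 CPM in blood, and NK cell markers, 6 listed, to at most 336 CPM in the brain and to at least 1780 CPM in blood. Aqp4 was at 0 in all libraries, and no astrocyte or neuron marker reached the tested set. Border macrophage markers, 6 listed, summed to 356, 348 and 553 CPM in NMO_Br_mono and to between 300 and 1250 CPM in blood. Mrc1 was above blood in every brain library (25.3, 62.1 and 37 against at most 15.4 CPM). Pf4 was below blood in every brain library, and Cd163, Lyve1, Cbr2 and F13a1 overlapped. The sort gate selects against microglia (P2ry12-), neutrophils (Ly6G-) and endothelial cells (CD45+). The part of these cells in the differences of the glycolysis and hypoxia genes was not tested.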

How the data were processed

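QuantSeq 3ʹ libraries of sorted monocytes were measured in 3 groups of 3, assigned from the sample labels, and replicates are described as independent pools. Per the submitters' processing notes, Bowtie2, bedtools and mm10 were used, with versions not given in the sources used here. The authors counted reads, including those with several alignments, and deposited raw counts per gene symbol. Per library these totalled 8728729 to 9859847 in Nor_Bl_mono, 7584649 to 9143024 in NMO_Bl_mono and 9545915 to 10419647 in NMO_Br_mono. Their number and the 3 replicates limit the precision.

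From the counts, everything was computed in R 4.3.3 and Python 3.11.15. Of 23282 entries, 35 symbols appeared more than once and were represented by their entry with the highest count. Genes passing filterByExpr (10107) were tested with edgeR 4.0.16 (glmQLFit, glmQLFTest, TMM factors, all 9 libraries in 1 fit, two-sided, Benjamini-Hochberg over all genes tested), and the scripts were tested on simulated data. The SE is the log2 fold change divided by the square root of F. With 3 libraries against 3, an exact permutation test of a single value cannot go below p = 0.1, so none is given. Alternatives used RLE factors, library sizes alone, other filters, the replicate number as a block, a robust fit, DESeq2 1.42.0, limma 3.58.1 (voom, and log2(CPM + 1) with a pseudocount of 1), added entries and each library left out.

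The 36 genes and the other lists were chosen with earlier results of these data known. All 36 are described by their levels. A fold change is given where the unadjusted p was under 0.05 or the groups did not overlap, genes of other pathway lists are named where their unadjusted p was under 0.05 in NMO_Br_mono against NMO_Bl_mono (at most 5 of a list), marker genes only as examples of a list that moved beside a member, and Eno1b, Mdh2 and the marker examples were chosen after their values were seen. DESeq2 gave a p to 9591 of the genes tested. Promoter sequences and gene positions are from RefSeq tables of GRCm38.p6.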

Additional observations from a re-analysis of the deposited data

How the results depend on the processing

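Every log2 fold change given for a member kept its sign in all alternatives that could be fitted, and the medians over the tested members stayed between 0.87 and 2.1 for NMO_Br_mono against NMO_Bl_mono (1.47 as reported), between 1.02 and 1.73 for NMO_Br_mono against Nor_Bl_mono (1.2) and between -0.26 and 0.26 for NMO_Bl_mono against Nor_Bl_mono (0.06). The sizes of single fold changes and the counts of members past a threshold moved, with the cause not tested. The share of all genes past the same threshold is given in parentheses. For NMO_Br_mono against NMO_Bl_mono the number higher at an unadjusted p under 0.05, 2 as reported (1.48%), was 5 with no filter (1.88%), 5 with DESeq2 (2.98%), 8 with limma-voom (3.75%), 10 with limma on log2(CPM + 1) (3.8%) and 7 (2.05%) with both blood libraries numbered 3 left out, an alternative chosen after seeing the data. The number lower, 1 (3.84%), was 0 with only the groups compared (1.99%), with limma-voom (8.86%) and with both libraries left out (5.79%). For NMO_Br_mono against Nor_Bl_mono the number higher, 3 (1.75%), was 5 of the 10 members left with at least 10 counts in every library (5.84%), 7 with only the groups compared (2.7%), 5 with DESeq2 (3.56%), 10 with limma-voom (4.33%), 5 with limma on log2(CPM + 1) (2.48%) and 9 with both libraries left out (2.67%). For NMO_Bl_mono against Nor_Bl_mono the number higher, 0 (0.465%), was 3 with limma-voom (3.43%) and 1 with both libraries left out (0.484%). Past the adjusted threshold, limma-voom had 1 member in each brain comparison (Pkm, adjusted p = 0.0231 and 0.0158) and DESeq2 had 1 against Nor_Bl_mono (Aldoa, adjusted p = 0.0247). limma-voom moved the median of all genes from 0.05 to -0.65 in the first comparison.

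Leaving out single libraries gave 1 to 3 members higher and 0 to 1 lower for NMO_Br_mono against NMO_Bl_mono. The 1 lower, Bnip3l, was lost without replicate 2 of any group and without NMO_Br_mono replicate 1. Without NMO_Bl_mono replicate 2 the log2 fold change over that group was 4.22 for Slc2a1, 5.45 for Pfkfb4, 3.98 for Tpi1, 2.4 for Ldha and 3.13 for Vegfa, and without NMO_Br_mono replicate 2 it was 1.36 for Vegfa. It gave 2 to 8 higher against Nor_Bl_mono, the 8 without NMO_Bl_mono replicate 3, with 0 to 1 past the adjusted threshold (Pkm, 0.0135), and 0 to 1 higher between the blood groups, the 1 without either blood library numbered 3. Over all genes, 25 passed the adjusted threshold in each brain comparison as reported, against 334 and 367 with DESeq2, 110 and 115 with no filter, 51 and 33 with limma-voom and 7 and 23 with only the groups compared.

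The replicate numbers are shared by the groups, but same-numbered libraries deviated together only weakly (correlations of -0.01 to 0.12), so they were not treated as pairs. Replicate 1 nevertheless had the highest Rn45s share in each group, at 43.61% in Nor_Bl_mono, 42.21% in NMO_Bl_mono and 39.29% in NMO_Br_mono. It also had the most genes with a count in each group. Whether the replicate number marks a batch was not tested. With the replicate number as a block, 3 members were higher and 1 lower for NMO_Br_mono against NMO_Bl_mono (median 1.86), and 2 higher and 1 lower against Nor_Bl_mono (median 1.69). Under the block the log2 fold change over NMO_Bl_mono was 5.55 for Hk2, 5.13 for Hilpda, 4.77 for P4ha1, 5.45 for Tpi1, 5.07 for Vegfa, 6.72 for Pfkfb4, 5.49 for Bnip3 and 3.55 for Slc16a3. Over Nor_Bl_mono it was 5.65 for Hk2, 5.83 for Ndrg1, 6.69 for P4ha1, 4.04 for Tpi1 and 7.89 for Bnip3.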
